A study of Mus musculus with 9 samples.

Results

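The genes described here are those by which splenic mcDC differed from both conventional dendritic cell subsets at once. A gene was taken when its lowest mcDC library lay above, or its highest mcDC library below, all 6 cDC1 and cDC2 libraries, and when its RPKM (reads per kilobase of gene and per M reads, a measure scaled to gene length and library size) was above 1 in at least 2 of the 9 libraries. Of 11971 genes past that minimum, 818 met the rule (6.83%): 667 were higher in mcDC (5.57%) and 151 were lower (1.26%). These percentages are the background against which every list of genes below is to be read, with the values as deposited. After median-of-ratios scaling 349 of all genes were higher and 356 lower, and after quantile normalization 355 and 318. List counts under those scalings are to be read against these. The genes were thus chosen by their measured RPKM in all 9 libraries, and their differences between mcDC and the conventional subsets are given as a description, with no test. Where limma calls of mcDC against cDC1 or cDC2 are counted over a list below, they rest on the same values as the rule, so they describe the list and are no separate evidence.

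RNA had been sequenced from cDC1, cDC2 and mcDC sorted from the spleen of C57Bl/6 mice aged 8 to 12 weeks, with 3 libraries of each subset and no treatment or genetic change named. The labels do not expand the name mcDC, which in the field stands for merocytic dendritic cells. They give no sort markers, and they do not say whether the libraries came from separate mice or pools, so the replicate spread behind each p-value may be only technical. In bulk libraries such as these, fewer cells of a type and less RNA per cell cannot be told apart.

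Conventional dendritic cells take up antigen and present it to T cells. The cDC1 subset is known for cross-presentation to CD8 T cells and the cDC2 subset for priming CD4 T cells, while merocytic dendritic cells were described as cells that take up dying cells. Dying cells are recognised through bridging proteins such as complement C1q and through receptors of the TAM family, to which MerTK and Axl belong. In the spleen this work, and the recycling of iron from old red cells, is known mainly from red pulp macrophages.

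Library totals were 9.2 to 12.44 M reads in the conventional subsets and 5.15 to 8.24 M in mcDC, which makes a single read on 1 kb equal to 0.08 to 0.194 RPKM, most in mcDC replicate 3. The mcDC replicate 3 library stood apart, with 12.35% of genes at 0 against 2.71% to 6.47% in the others. It was the highest mcDC library for 410 of the 667 higher genes (61.5%), against 38.2% of all genes tested. The mcDC libraries held conventional dendritic cell transcripts. Flt3, the receptor for the growth factor of the lineage, measured 189, 190 and 144 RPKM in mcDC replicates 1 to 3, 250 to 286 in cDC1 and 134 to 163 in cDC2. Zbtb46, a zinc finger factor that marks the conventional lineage, measured 44.4, 34.9 and 25.5 RPKM in mcDC, 38.1 to 44.3 in cDC1 and 29.2 to 37.6 in cDC2. The integrin gene Itgax (CD11c) measured 414, 308 and 253 RPKM in mcDC, 243 to 307 in cDC1 and 406 to 514 in cDC2. Of 20 tested pan dendritic cell genes, 0 were higher members and 3 lower (15%, against 1.26% of all genes).

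The promoters of 4 higher genes are shown because Cd5l and the C1q genes are textbook macrophage genes that stood together among the higher genes, C1qb and C1qc are neighbours on chromosome 4, and Mertk led the list. Each sequence runs from 250 bases before to 50 bases after the RefSeq start on the gene's own strand (build GRCm38.p6). The locations are chr2:128698665-128698964 on the plus strand, chr3:87357631-87357930 on the plus strand, chr4:136886151-136886450 on the minus strand and chr4:136892865-136893164 on the minus strand. Capitals mark TGCTGA, the half-site bound by MAF factors, and GAGGAAGT, a site of the myeloid factor PU.1, on either strand. Maf, the gene of one such factor, was itself among the higher genes.
Mertk: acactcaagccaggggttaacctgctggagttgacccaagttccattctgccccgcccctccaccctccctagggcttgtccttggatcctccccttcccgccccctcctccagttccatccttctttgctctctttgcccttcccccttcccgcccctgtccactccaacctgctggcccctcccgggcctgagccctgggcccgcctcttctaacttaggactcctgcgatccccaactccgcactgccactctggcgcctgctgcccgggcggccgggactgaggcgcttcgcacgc
Cd5l: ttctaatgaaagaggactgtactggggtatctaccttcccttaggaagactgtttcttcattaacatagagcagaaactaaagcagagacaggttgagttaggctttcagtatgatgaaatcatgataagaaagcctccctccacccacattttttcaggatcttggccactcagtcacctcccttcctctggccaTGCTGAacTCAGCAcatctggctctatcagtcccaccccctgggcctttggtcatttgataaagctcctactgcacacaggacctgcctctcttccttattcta
C1qb: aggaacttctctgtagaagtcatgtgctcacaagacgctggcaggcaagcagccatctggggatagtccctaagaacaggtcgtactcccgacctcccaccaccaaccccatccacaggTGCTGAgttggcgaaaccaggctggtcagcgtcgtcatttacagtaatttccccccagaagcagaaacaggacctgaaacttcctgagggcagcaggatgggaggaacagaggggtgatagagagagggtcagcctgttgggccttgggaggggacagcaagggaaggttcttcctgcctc
C1qc: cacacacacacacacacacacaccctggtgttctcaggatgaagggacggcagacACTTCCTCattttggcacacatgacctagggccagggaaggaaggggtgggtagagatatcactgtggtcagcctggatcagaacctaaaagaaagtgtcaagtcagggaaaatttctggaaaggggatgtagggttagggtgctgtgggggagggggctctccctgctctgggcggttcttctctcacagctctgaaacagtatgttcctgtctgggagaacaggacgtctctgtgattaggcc

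Cd5l held the MAF half-site on both strands, beginning 54 and 46 bases before the start, and C1qb held it 131 bases before the start. C1qc held the PU.1 letters 195 bases before the start, and neither motif was in the Mertk window. Over the 517 higher genes with a promoter in the RefSeq table, 15.7% held TGCTGA, against 16.7% of the 108 lower genes with one, 17.7% of the tested genes with one and 21.7% of all genes in that table. GAGGAAGT was in 3.09% of higher, 8.33% of lower and 4.2% of tested genes, and in 3.69% of all genes in that table. Of 3 further motifs searched, the T-box letters AGGTGTG were in 5.22% of higher and 5.31% of tested genes, the nuclear receptor half-site AGGTCA in 16.8% and 14.8%, and the E-box CACGTG in 12.2% and 11.8%; their shares over all genes in that table were 6.72%, 18.1% and 8.09%. These are letter matches in a window, and the shares of the higher genes lay close to those of all tested genes.

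Mertk, which encodes the receptor tyrosine kinase MerTK that binds bridging proteins on dying cells, had the widest gap between subsets of the genes with at least 5 RPKM in every mcDC library. It measured 11, 15.8 and 14.2 RPKM in mcDC replicates 1 to 3, against 1.10, 1.28 and 1.87 in cDC1 and 0.610, 0.818 and 0.775 in cDC2. The lowest mcDC library was 5.84 times the highest conventional one, and the value rested on 325 to 402 reads in mcDC. The ratio of the mean over mcDC to the mean over the 6 conventional libraries was 12.7.

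Slc40a1 encodes ferroportin, the exporter that releases recycled iron from cells. Its RPKM was 41.8, 50.7 and 62.9 in mcDC, 8.46, 8.18 and 12.5 in cDC1 and 6.30, 6.16 and 8.49 in cDC2. The groups lay 3.33 times apart at their nearest libraries. Ncr1, the gene of the activating receptor NKp46 of natural killer cells, measured 21.4, 32.2 and 22.3 RPKM in mcDC, 4.10, 5.64 and 4.79 in cDC1 and 2.67, 3.26 and 4.78 in cDC2. Its nearest libraries lay 3.79 times apart, and both conventional subsets held a low level.

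Ccr3, a chemokine receptor gene best known from eosinophils, was more uneven among the mcDC libraries, at 6.86, 13.5 and 17.3 RPKM. It measured 1.69, 2.30 and 1.58 RPKM in cDC1 and 0.565, 0.795 and 1.96 in cDC2, leaving a nearest ratio of 2.98. In limma's test of cDC1 against cDC2, the contrast the rule did not compare, none of these 4 genes passed at an adjusted p of 0.05: the adjusted p was 0.15 for Mertk, 0.23 for Slc40a1, 0.32 for Ncr1 and 0.4 for Ccr3. A gene on which the conventional subsets lie close meets the rule more easily, so this outcome was favoured by the choice of genes. With the run of library numbers as a replicate block, Slc40a1 passed, being higher in cDC1 (log2 difference 0.42, adjusted p = 0.035 by limma), and the other 3 did not.

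**Figure D1:**
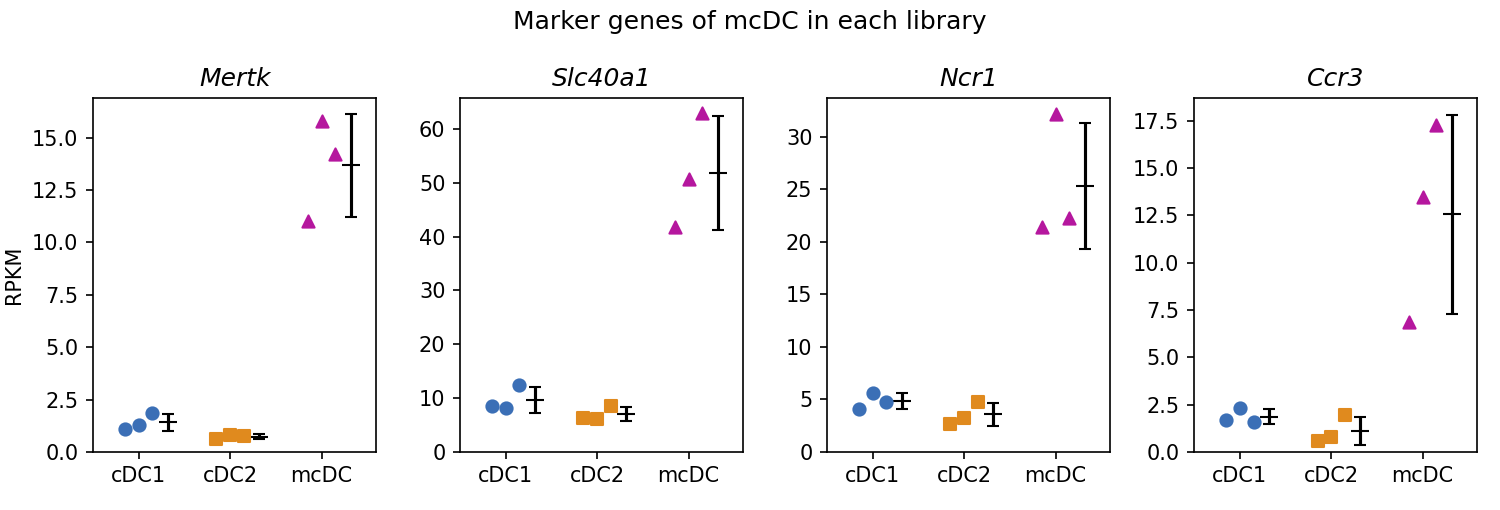
RPKM of Mertk, Slc40a1, Ncr1 and Ccr3 (one panel each, linear axis from 0) in the 3 libraries of cDC1, cDC2 and mcDC; points are libraries, and the black bar beside them is the mean with SD. In each panel all mcDC libraries lie above all conventional ones, by 5.84 times for Mertk and 2.98 times for Ccr3 at the nearest libraries.

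As deposited, genes of macrophage identity had the highest share of higher members among the 29 lists compared. Of its 28 tested genes, 17 were higher members (60.7%, against 5.57% of all genes), and 1, Treml4, a receptor of splenic myeloid cells, was lower. The count was 14 after median-of-ratios scaling, when it made up the same share as the 17 of 34 natural killer genes, and 15 after quantile normalization. In limma's test, which reuses the values of the rule, 23 of the 28 were called higher and 1 lower in mcDC than in cDC1, where 9.53% of all genes were called higher and 5.88% lower. Against cDC2, 9 were called higher and 1 lower, where 2.06% of all genes were called higher and 1.6% lower. The median log2 difference of the list was 1.63 against cDC1 and 0.71 against cDC2, where all tested genes had 0.09 and 0.06.

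Cd5l, a secreted protein gene of tissue macrophages, measured 12.9, 14.0 and 36.2 RPKM in mcDC, 3.03, 1.87 and 3.29 in cDC1 and 1.92, 1.53 and 2.49 in cDC2. Its highest value was in mcDC replicate 3, while the other mcDC libraries were close to each other. Itgad, the integrin alpha D chain of splenic macrophages, measured 15.7, 16.9 and 12.7 RPKM in mcDC, 3.39, 1.60 and 3.77 in cDC1 and 2.58, 2.67 and 2.09 in cDC2. The 3 mcDC libraries were alike for this gene, and the nearest libraries lay 3.36 times apart.

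Several macrophage genes did not follow. Csf1r, the receptor for macrophage growth factor, measured 81.6, 74.3 and 104 RPKM in mcDC, between 12.7 to 32.5 in cDC1 and 169 to 230 in cDC2. The lysosomal macrophage marker Cd68 lay between as well, at 155, 188 and 190 RPKM in mcDC, 109 to 129 in cDC1 and 225 to 303 in cDC2. The signal regulator Sirpa measured 213, 145 and 151 RPKM in mcDC and 267 to 278 in cDC2. Outside the rule for named genes and chosen after their values were seen, the macrophage scavenger receptor Marco was at 0 to 1.45 RPKM in mcDC and the F4/80 gene Adgre1 at 45.1 to 64.4, below the 87.6 to 95.7 of cDC2. The summed RPKM of the whole macrophage list was 1015 to 1375 in mcDC, 1052 to 1288 in cDC2 and 386 to 492 in cDC1, and none of its genes was under 1 RPKM in all mcDC libraries. Macrophages in the sorted mcDC were not measured apart, and their part in these values was not tested.

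The chains of C1q, which bridges dying cells and complement, were all higher. C1qa measured 47.7, 58.9 and 88.1 RPKM in mcDC, 7.38, 9.39 and 15.2 in cDC1 and 12.4, 15.6 and 15.2 in cDC2. C1qb measured 54.5, 74.9 and 135 RPKM in mcDC, with 10.8 to 19.4 in cDC1 and 16.7 to 25.3 in cDC2, and C1qc 49.2, 75.7 and 156 RPKM, with 8.69 to 18.3 and 12.0 to 13.9. Replicate 3 was highest in mcDC for all 3 chains, but the lowest mcDC library was still 2.15 to 3.05 times the highest conventional one. The fourth higher gene of the 15 tested complement genes was Cfp, properdin, at 228, 239 and 243 RPKM in mcDC and 196 to 215 in cDC2. Its gap of 1.06 times was lost after median-of-ratios scaling and after quantile normalization.

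Among 27 tested genes of apoptotic cell uptake, 6 were higher members (22.2%) and 0 lower. Apart from Mertk and the C1q chains these were Axl and Stab2. Axl, the second TAM receptor gene among them, measured 20.2, 22.1 and 27.2 RPKM in mcDC, 5.30, 3.18 and 6.49 in cDC1 and 6.26, 7.18 and 10.9 in cDC2. Its mcDC libraries all lay above the conventional ones. Stab2, a scavenger receptor of sinus endothelium and macrophages, measured 2.67, 2.25 and 2.65 RPKM in mcDC, 0.949 to 1.60 in cDC1 and 0.207 to 0.214 in cDC2. Other uptake genes with high levels stayed outside: Havcr2 (TIM-3), a phosphatidylserine receptor gene of cDC1, measured 73.0, 79.8 and 61.2 RPKM in mcDC, near the 76.0 to 92.5 of cDC2 and under the 178 to 206 of cDC1. By limma, 15 of the 27 were called higher and 2 lower than in cDC1, where 9.53% and 5.88% of all genes were. Against cDC2, 7 were called higher and 3 lower, where 2.06% and 1.6% of all genes were.

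Iron and heme genes were divided. Of 28 tested, 5 were higher members (17.9%) and 1 lower (3.57%). The higher count was 3 after median-of-ratios scaling and 8 without mcDC replicate 1, where 13.3% of all genes were higher. Hmox1, heme oxygenase, measured 61.2, 95.3 and 165 RPKM in mcDC, 42.1, 43.4 and 52.5 in cDC1 and 18.8, 24.8 and 33.5 in cDC2. Its groups lay 1.17 times apart at the nearest libraries, and mcDC replicate 3 was far above the other mcDC libraries. Ncoa4, the receptor that carries ferritin to lysosomes, was more even at 41.4, 44.7 and 41.4 RPKM in mcDC against 28.2 to 35.1 in the conventional libraries. Cd163, the hemoglobin scavenger receptor, reached 6.81, 10.2 and 5.73 RPKM in mcDC and 3.4 to 5.29 in cDC2, and it left the set after median-of-ratios scaling. The lower gene was Hfe, a regulator of iron uptake, at 23.8, 20.1 and 29.8 RPKM in mcDC, 36.4 to 49.3 in cDC1 and 47.7 to 57.2 in cDC2. The ferritin chains were not members: Fth1 measured 533, 506 and 670 RPKM in mcDC, within the 396 to 815 of the conventional libraries.

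Of 20 tested genes of the LXR sterol response, 3 were higher members (Mertk, Nr1h3 and Abca1) and 1, Soat1, was lower. Abca1, a cholesterol exporter gene, measured 3.4, 2.12 and 1.67 RPKM in mcDC against at most 1.51, and it left the set after quantile normalization. Nr1h3, the gene of the sterol sensor LXR alpha that red pulp and marginal zone macrophages use, measured 10.4, 10.3 and 19.5 RPKM in mcDC, 5.42, 8.15 and 8.05 in cDC2 and 0.560, 1.76 and 1.57 in cDC1. It was ordered mcDC, cDC2, cDC1 with no overlap, and the cDC1 level was below that of cDC2 (log2 difference -1.86, SE 0.30, adjusted p = 0.002 by limma). Soat1, which esterifies cholesterol for storage, measured 17.6, 14.1 and 14.2 RPKM in mcDC, 19.2 to 21.6 in cDC1 and 24.6 to 28.9 in cDC2. Apoe, an apolipoprotein gene that LXR controls, was not a member and overlapped with the conventional subsets, at 80.5, 94.1 and 199 RPKM in mcDC and 71.1 to 209 elsewhere.

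Natural killer cell genes came next as deposited. Of 34 tested, 19 were higher members (55.9%) and 0 lower, with 17 higher after either other scaling. By limma, 21 were called higher and 0 lower than in cDC1, where 9.53% and 5.88% of all genes were. Against cDC2, 12 were called higher and 2 lower, where 2.06% and 1.6% of all genes were. The median log2 differences were 1.30 and 1.01. Il2rb, the receptor chain for IL-2 and IL-15, measured 26.3, 37.9 and 29.7 RPKM in mcDC, 7.58, 10.9 and 11.2 in cDC1 and 3.79, 5.76 and 5.84 in cDC2. Its libraries were separated by 2.34 times, and it differed between the conventional subsets too, being higher in cDC1 (log2 difference 0.83, SE 0.21, adjusted p = 0.021 by limma), a call that was lost without cDC1 replicate 2 or 3 or cDC2 replicate 1 (adjusted p up to 0.089).

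Lectin receptor genes of the natural killer complex were among them, with the caution that these families hold near-identical genes between which reads can be split. Klrc1 (NKG2A) measured 9.98, 23.4 and 37.5 RPKM in mcDC and 1.88 to 4.73 in the conventional libraries. Klrb1c (NK1.1) measured 5.86, 10.2 and 25.1 RPKM in mcDC and 1.96 to 2.92 elsewhere. Klrb1a was low but separate, at 3.24, 3.24 and 2.13 RPKM against at most 0.749.

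The natural killer genes varied more among the mcDC libraries than the higher genes as a whole. Over the 19, the highest mcDC library was in the median 2.73 times the lowest. This ratio was 1.38 over all 667 higher genes, 1.68 over the 17 macrophage genes and 1.63 over all genes tested. Some smaller sets of higher genes were spread as well, with 2.16 over the 4 complement genes and 2.69 over 2 cytotoxic granule genes. Replicate 3 was highest for 13 of the 19 and replicate 1 lowest for 15. Without replicate 1 the rule held for 21 natural killer genes (13.3% of all genes), without replicate 2 for 19 (9.27%) and without replicate 3 for 20 (11.6%); with fewer mcDC libraries the rule is easier to meet, so these counts could hardly fall. The list also has genes that mcDC shared with cDC2: Klrd1 (CD94) measured 159, 175 and 173 RPKM in mcDC, 150 to 174 in cDC2 and 31.9 to 104 in cDC1, and the adapter Tyrobp measured 540, 689 and 1012 RPKM in mcDC, within or below the 846 to 1266 of cDC2. The summed RPKM of the list was 1708 to 2661 in mcDC, 1880 to 2135 in cDC2 and 1054 to 1238 in cDC1, and none of its genes was under 1 RPKM in all mcDC libraries. Natural killer cells in the sorted mcDC were not measured apart, and their part was not tested.

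**Figure D2:**
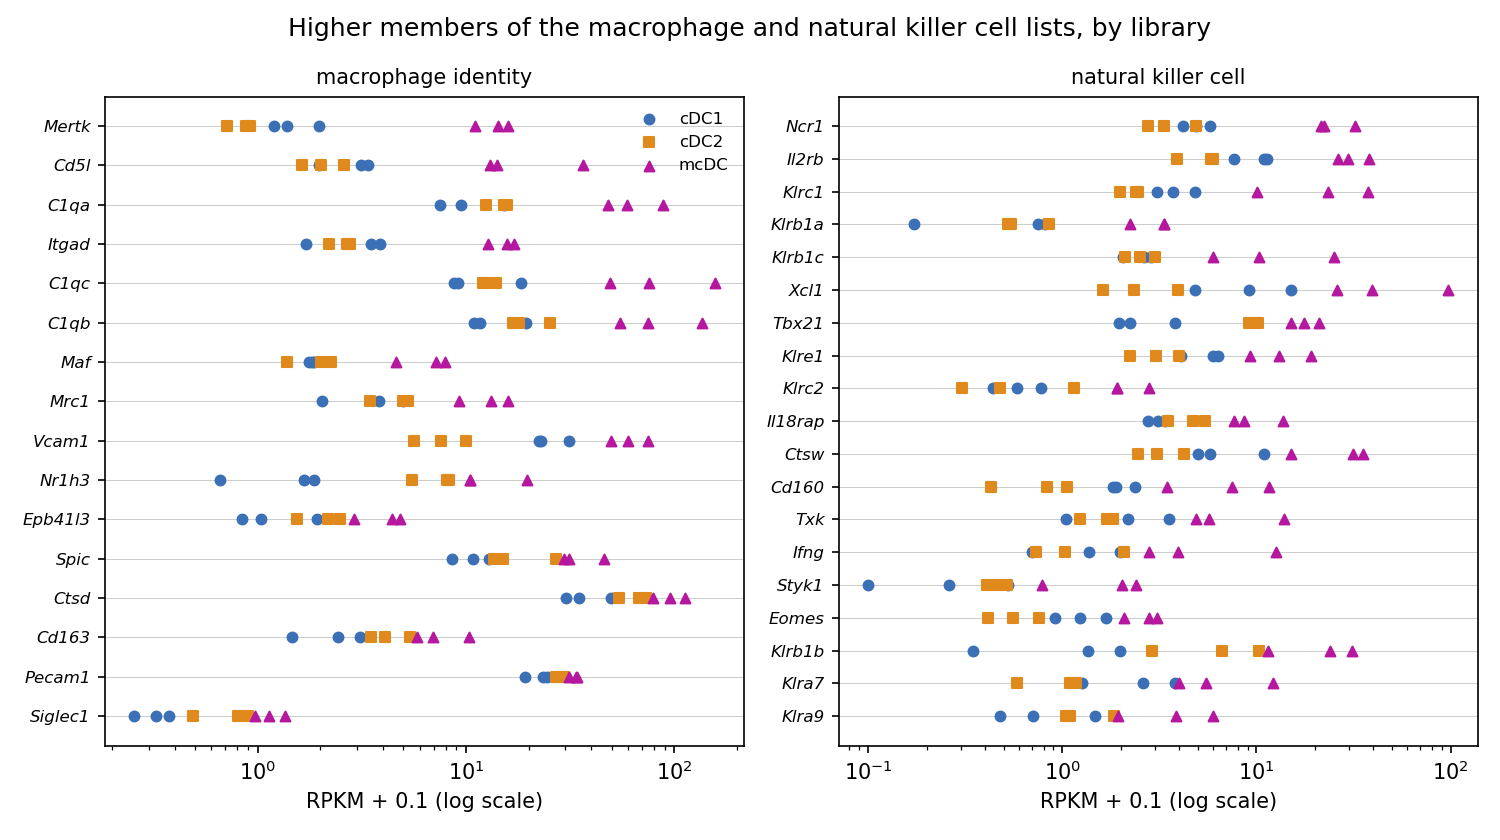
RPKM plus 0.1 (log axis) of 16 of the 17 higher members of the macrophage list (left) and the 19 of the natural killer list (right), with 1 point per library and rows ordered by the gap between subsets. The mcDC triangles lie to the right of all cDC1 circles and cDC2 squares in every row, by the rule, and the natural killer rows are more spread, with a median ratio of highest to lowest mcDC library of 2.73 against 1.68 for the 17 macrophage genes.

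Regulators and receptors of innate lymphoid cells were higher for 11 of 25 tested genes (44%) and lower for 1, Ahr, which was chosen after its values were seen and measured 14.0, 14.0 and 10.4 RPKM in mcDC against 15.5 to 28.7. By limma, 15 were called higher and 2 lower than in cDC1, where 9.53% and 5.88% of all genes were. Against cDC2, 9 were called higher and 0 lower, where 2.06% and 1.6% of all genes were. Tcf7, the gene of the lymphoid factor TCF-1, measured 74.8, 52.6 and 55.4 RPKM in mcDC, 20.9, 16.1 and 18.2 in cDC1 and 24.8, 12.8 and 14.3 in cDC2. It was not highest in replicate 3, and its nearest libraries lay 2.12 times apart. Il18r1, a chain of the IL-18 receptor, measured 4.67, 7.70 and 5.44 RPKM in mcDC and 0.790 to 2.07 elsewhere. Ets1, a lymphoid transcription factor, measured 12.9, 15 and 16.2 RPKM in mcDC and 4.65 to 7.40 elsewhere. The high-level genes of this list were not members, among them Id2 at 222, 372 and 522 RPKM in mcDC. Its mcDC values lay above the 110 to 159 of cDC2 and reached into the 441 to 586 of cDC1.

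Markers of T cells gave 4 higher members and 1 lower of 19 tested (21.1% and 5.26%). The higher ones were Tcf7, Gata3, Il7r and Zap70, of which Gata3, a lymphoid transcription factor, measured 1.02, 3.02 and 3.32 RPKM in mcDC against 0.150 to 0.565. Zap70, a T cell receptor kinase gene that natural killer cells also use, measured 2.70, 4.31 and 6.92 RPKM against at most 2.47, and it left the set after either other scaling. The lower one was Cd8b1, the CD8 beta chain, at 0, 0.127 and 0 RPKM in mcDC, 0.307 to 0.368 in cDC2 and 8.91 to 12.8 in cDC1. The CD3 genes, chosen after their values were seen, were not members: Cd3e measured 6.09, 4.88 and 3.79 RPKM in mcDC. The summed T cell list was 147 to 176 RPKM in mcDC, 87.6 to 143 in cDC1 and 48.8 to 69.4 in cDC2, and its part in the lymphoid results was not tested.

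Ccr3 stood with few other eosinophil genes. Of 14 tested genes of eosinophils, basophils and mast cells, 2 were higher (Ccr3 and Prg2) and 1 lower. Prg2, the major basic protein gene, measured 4.78, 6.43 and 10.9 RPKM in mcDC and up to 4.68 in cDC1, and it did not stay outside the conventional range under either other scaling. The lower gene, the basophil protease Prss34, was listed at 0 in all mcDC libraries and at 0.0894 to 2.01 RPKM elsewhere. The eosinophil markers Siglecf, at 1.09 to 2.06 RPKM in mcDC, and Il5ra, at 0.854 to 1.26, were chosen after their values were seen. Of the 23 listed genes in the table, 10 were under 1 RPKM in all mcDC libraries and 1 was at 0 in all of them, and the summed list was 185 to 248 RPKM in mcDC, 151 to 175 in cDC1 and 292 to 316 in cDC2. Ccr3 was also the only higher member of 21 tested chemokine and related receptors.

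Transcription factors of the dendritic cell lineage gave 5 higher members of 35 tested (14.3%) and 0 lower. The count was 5 under both other scalings and 8 without mcDC replicate 3, where 11.6% of all genes were higher. Maf, a factor of macrophages and lymphocytes, measured 4.53, 7.79 and 7.09 RPKM in mcDC and 1.28 to 2.14 elsewhere. It was thus outside the conventional range, at a modest level. Tbx21, the gene of T-bet, measured 15, 17.5 and 21.0 RPKM in mcDC, 10.1, 9.72 and 9.01 in cDC2 and 1.85, 2.13 and 3.72 in cDC1. Nr1h3 was another. The highest-level factors of the list stayed outside the set, among them Spi1 (PU.1) at 275, 293 and 317 RPKM in mcDC. Its mcDC values lay above the 216 to 224 of cDC1 and reached into the 310 to 364 of cDC2.

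Genes of the cDC1 and cDC2 identities were seldom members, since in mcDC many of them lay between the conventional subsets. Of 22 tested cDC1 identity genes, 0 were members. Limma called 16 lower in mcDC than in cDC1 (5.88% of all genes were) and 13 higher than in cDC2 (2.06%). Irf8, the transcription factor of cDC1, measured 206, 404 and 493 RPKM in mcDC, 620 to 785 in cDC1 and 50.9 to 94.7 in cDC2. Xcr1, the chemokine receptor of cDC1, measured 10.3, 17.3 and 19.4 RPKM in mcDC, 131 to 174 in cDC1 and 1.95 to 2.81 in cDC2, and Cd8a measured 3.72, 4.02 and 9.68 RPKM in mcDC, 306 to 346 in cDC1 and 1.22 to 1.41 in cDC2. Of 23 cDC2 identity genes 1 was a member (Tbx21, higher). Here 16 were called higher than in cDC1 (9.53% of all genes were) and 8 lower than in cDC2 (1.6%). Itgam (CD11b) measured 15, 16.4 and 10 RPKM in mcDC, 2.61 to 3.99 in cDC1 and 80.9 to 117 in cDC2. On these genes the mcDC libraries took intermediate values.

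Further higher genes with wide gaps had less familiar roles in dendritic cells. Gfra2, a receptor for the neurotrophic factor neurturin, measured 12.7, 13.2 and 12.0 RPKM in mcDC, 1.80, 0.962 and 2.16 in cDC1 and 4.49, 4.53 and 2.88 in cDC2. Its 3 mcDC libraries were close to each other. Pld3, a lysosomal nuclease, measured 15.9, 17.6 and 20.2 RPKM in mcDC and 2.95 to 5.35 in all conventional libraries. Slc45a3, of a sugar transporter family, measured 5.82, 5.93 and 6.46 RPKM in mcDC against 0.156 to 1.22, and Dact3, a Wnt pathway modulator, 5.02, 5.02 and 5.22 against 0.0365 to 1.25. Spry2, an inhibitor of growth factor signalling, measured 5.29, 5.59 and 10 RPKM in mcDC against 0.365 to 1.52. Mdk, the growth factor midkine, measured 6.69, 6.52 and 9.27 RPKM in mcDC against 0.610 to 2.12.

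**Figure D3:**
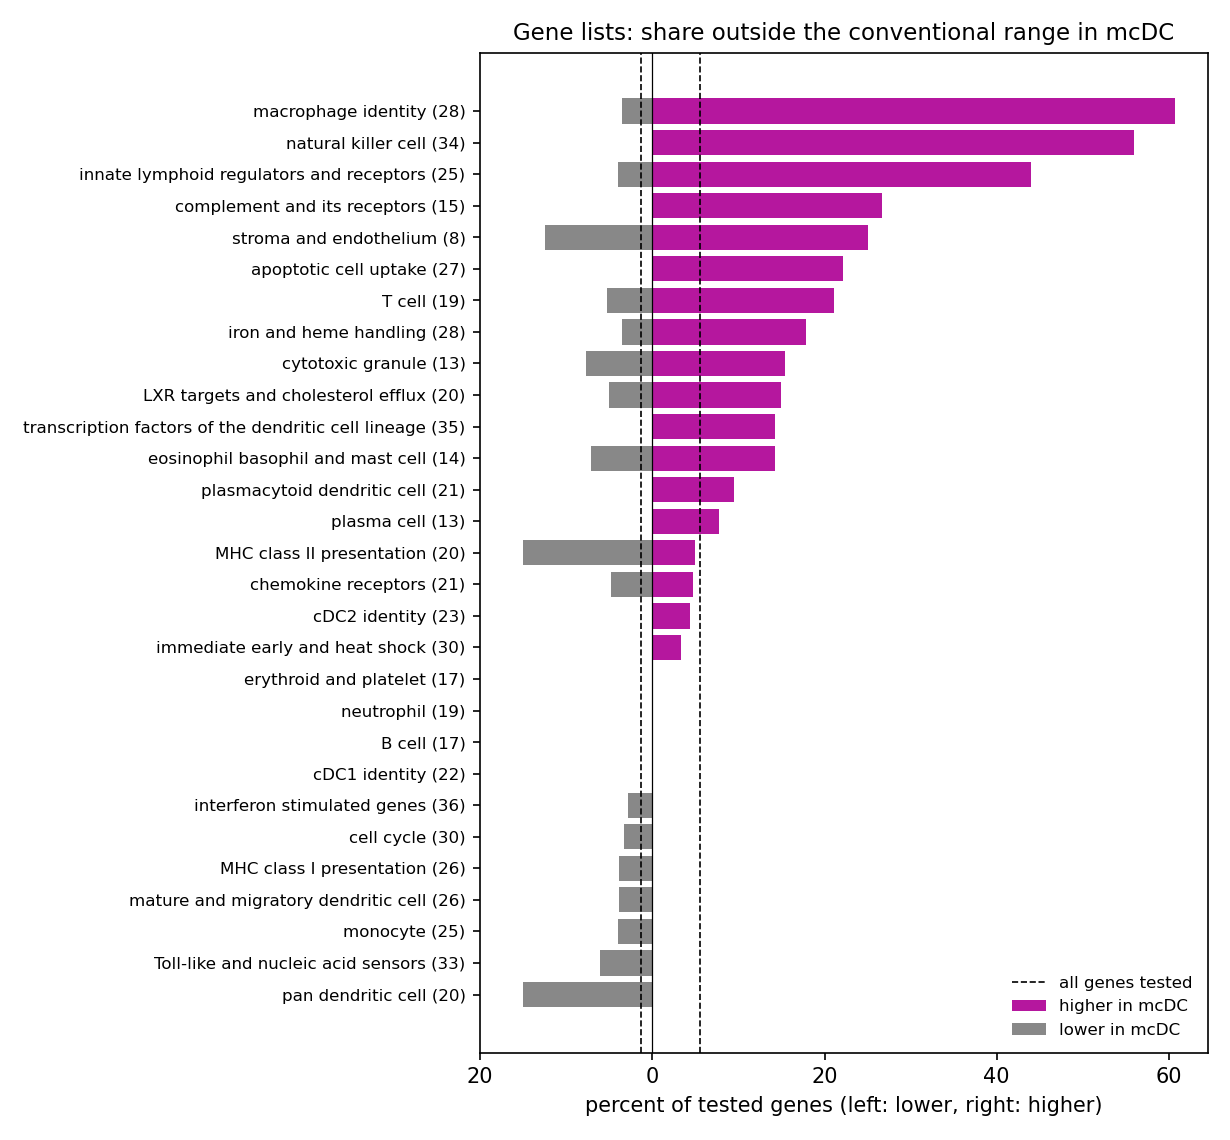
Percent of the tested genes of 29 gene lists (number tested in brackets) that were higher (right) or lower (left) in mcDC than in all 6 conventional libraries; dashed lines are the shares over all 11971 genes, 5.57% and 1.26%. The macrophage (60.7%), natural killer (55.9%) and innate lymphoid (44%) lists reach furthest to the right. The pan dendritic and MHC class II lists (15% each) reach furthest to the left. Their lower genes are the same 3, H2-Eb1, H2-Aa and Cd74, and none of these was lower after quantile normalization.

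Lists of other cell types the sort could hold gave few members in number with all libraries. Some counts rose with 1 mcDC library left out, when the rule is easier to meet for all genes. Of 21 tested plasmacytoid dendritic cell genes, 2 were higher (Atp1b1 and Cox6a2, 9.52% of the list) and 0 lower. Of 13 plasma cell genes 1 was higher (7.69%). It was Fkbp11, a protein folding gene, at 1.48, 1.46 and 6.07 RPKM in mcDC against at most 1.26. The plasma cell count was 7 without mcDC replicate 1, where 13.3% of all genes were higher, and 0 after quantile normalization. Jchain, which joins secreted antibodies, was not a member, at 85.6, 197 and 274 RPKM in mcDC and 32.2 to 143 in cDC1. No gene of the 17 tested B cell, 19 neutrophil and 17 erythroid and platelet genes was a member. Without mcDC replicate 3, 5 B cell genes and 1 erythroid and platelet gene were higher, where 11.6% of all genes were. In that setting 3 neutrophil genes were lower, where 2.65% of all genes were. Without mcDC replicate 1, 2 B cell genes and 1 erythroid and platelet gene were higher, where 13.3% of all genes were. Without mcDC replicate 2, 2 neutrophil genes and 1 erythroid and platelet gene were lower, where 3.37% of all genes were. Of only 8 tested stroma and endothelium genes, Stab2 and Pecam1 were higher (25%, against 5.57% of all genes). Vwf was lower (12.5%, against 1.26%). Pecam1 (CD31), a junction protein that macrophages also make, measured 31.0, 33.8 and 33.9 RPKM in mcDC against at most 29.4, and lost its gap after median-of-ratios scaling. Of 30 cell cycle genes 1 was lower, and of 30 immediate early and heat shock genes 1 was higher. For the cell cycle list, 4 genes were higher without mcDC replicate 1, where 13.3% of all genes were. Without mcDC replicate 2, 5 of its genes were lower, where 3.37% of all genes were.

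Since mcDC replicate 3 stood apart, the lists were also counted without it, which makes the rule easier to meet: 11.6% of all genes were then higher and 2.65% lower. Higher members were then 18 of the macrophage list, 20 of the natural killer list, 13 of the innate lymphoid list, 7 of the uptake list, 4 of the complement list and 5 of the iron list. By limma without that library, 23 macrophage genes were called higher than in cDC1 and 9 higher than in cDC2, and 23 and 13 natural killer genes, where 14.4% and 2.62% of all genes were called higher. Called lower were 1 macrophage gene against cDC1 (7.58% of all genes) and 2 against cDC2 (1.75%), and 0 and 1 natural killer genes.

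As deposited the lower genes were fewer, 151 against 667, but after median-of-ratios scaling there were 356 lower and 349 higher genes. The median ratio between nearest libraries was 1.08 for the lower and 1.1 for the higher genes. The 12 named here are those with the widest gap among genes with at least 5 RPKM in every conventional library. Pid1, an adapter that dampens insulin signalling, measured 29.8, 31.2 and 30.0 RPKM in mcDC, 59.3, 58.1 and 54.0 in cDC1 and 53.3, 48.2 and 54.2 in cDC2. All subsets were tight for this gene, and the nearest libraries lay 1.55 times apart. Snx8, a sorting nexin, measured 10.1, 9.91 and 9.26 RPKM in mcDC and 14.6 to 17.9 elsewhere, and the phosphatase Ppm1h 8.30, 7.71 and 6.38 against 10.8 to 12.9.

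Receptors were among the lower genes. Cnr2, the cannabinoid receptor of immune cells, measured 11.9, 8.82 and 7.48 RPKM in mcDC, 26.0, 27.1 and 24.9 in cDC1 and 17.4, 15.6 and 15.5 in cDC2. Ptafr, the receptor for platelet activating factor, measured 14.8, 12.9 and 11 RPKM in mcDC, 19.1 to 24.4 in cDC1 and 26.2 to 28.1 in cDC2. Ifngr1, the ligand-binding chain of the interferon gamma receptor, measured 229, 207 and 210 RPKM in mcDC, 339, 383 and 356 in cDC1 and 303, 283 and 285 in cDC2. Each of the 3 was lowest in mcDC in every library, with nearest ratios of 1.24 to 1.30.

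Antigen presentation genes of class II gave 3 lower members and 1 higher of 20 tested, and the lower ones depended on the scaling. H2-Eb1, a class II beta chain, measured 3018, 2476 and 3206 RPKM in mcDC, 3882, 4071 and 4564 in cDC1 and 4459, 3858 and 4308 in cDC2. H2-Aa, a class II alpha chain, measured 5351, 5059 and 6226 RPKM in mcDC against 6487 to 7853, and the invariant chain Cd74 9849, 8496 and 11013 against 11169 to 12943. These lower members were 15% of the list, against 1.26% of all genes. After median-of-ratios scaling 6 were lower, where 356 of 11971 genes were, and after quantile normalization 1, where 318 were. Under quantile normalization H2-Eb1, H2-Aa and Cd74 all left the set. The same 3 genes were the lower members of the 20 pan dendritic cell genes. That list had 5 lower genes after median-of-ratios scaling and 0 after quantile normalization. Without mcDC replicates 1, 2 and 3 the lower class II members were 5, 4 and 5, where 3.82%, 3.37% and 2.65% of all genes were lower. By limma, 4 class II genes were called higher and 2 lower than in cDC1, where 9.53% and 5.88% of all genes were. Against cDC2, 0 were called higher and 1 lower, where 2.06% and 1.6% of all genes were. The median log2 differences were -0.03 and -0.26. H2-Eb1, H2-Aa and Cd74 were called against neither, and H2-Ab1 was called against neither (adjusted p = 0.28 and 0.58), at 4574, 4526 and 5940 RPKM in mcDC; with limma's voom on recovered reads it was called lower than in cDC1 (log2 difference -0.57, adjusted p = 0.035). The 1 higher class II gene was the protease Ctsl, at 3.42, 5.27 and 3.15 RPKM against at most 2.98, and it too left the set under either other scaling. Of 26 class I genes 1 was lower, H2-K1, at 778, 653 and 816 RPKM against 839 to 969, and it was not lower after quantile normalization.

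Epsti1 and Parp12 are known to respond to interferon and were lower members outside the list of interferon-stimulated genes. Epsti1 measured 80.9, 69.7 and 76.8 RPKM in mcDC, 214, 231 and 214 in cDC1 and 112, 96.4 and 99.5 in cDC2. Parp12, an antiviral ADP-ribosyltransferase, measured 11.8, 10.9 and 10 RPKM in mcDC, 19.8 to 30.5 in cDC1 and 15.7 to 16.8 in cDC2. Both were ordered cDC1, cDC2, mcDC with no overlap. Of the 36 listed interferon-stimulated genes only Oasl1 was a lower member (2.78%, against 1.26% of all genes) and 0 were higher. Limma called 12 of the 36 higher and 2 lower than in cDC1, where 9.53% and 5.88% of all genes were. Against cDC2, 0 were called higher and 5 lower, where 2.06% and 1.6% of all genes were. Gm2a, a lysosomal lipid-transfer protein gene, measured 407, 384 and 404 RPKM in mcDC against 484 to 667. Treml4 measured 24.7, 27.7 and 46.2 RPKM in mcDC, 95.7 to 111 in cDC1 and 54.0 to 69.1 in cDC2.

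**Figure D4:**
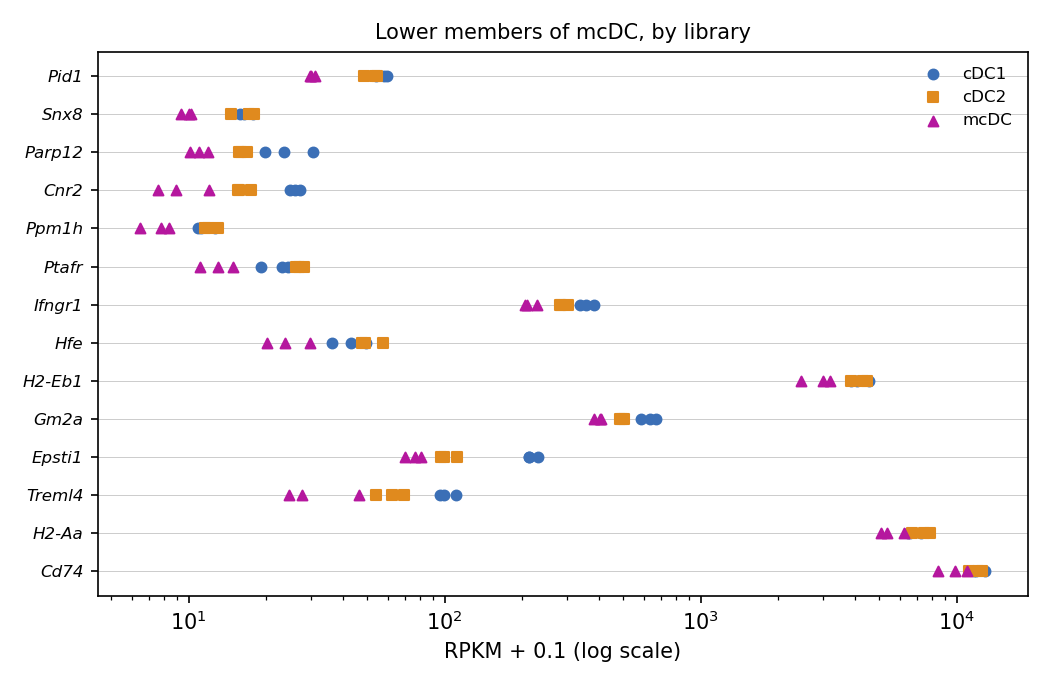
RPKM plus 0.1 (log axis) of the 12 named lower genes and of H2-Aa and Cd74, with 1 point per library. The mcDC triangles lie left of all conventional points in every row, by the rule, and the gaps are narrow, from 1.55 times for Pid1 to 1.01 times for Cd74.

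The sizes of the gaps were small for most members. The lowest mcDC library was at least 2 times the highest conventional one for 67 of the 667 higher genes (0.56% of all genes tested), and under 1.5 times for 553. Of the 151 lower genes, 9 reached 2 times (0.0752%), counting the 7 that were listed at 0 in all mcDC libraries. Higher genes had a median of 8.85 RPKM in mcDC and 4.35 in the conventional libraries, and lower genes 8.1 and 12.9. Median gene length was 2890 bases for higher, 2683 for lower and 2869 for all tested genes. The median reads per library were 146, 325 and 291 in the same order, and 17 higher and 10 lower genes rested on fewer than 10 reads per library on average. Just inside the threshold Glul was at 36.0 RPKM in the nearest mcDC and conventional libraries alike, and Zc3h13 at 14.5 in both, while Gtf2ird2, at 6.44 in both, and Klf16, at 11.1 in both, fell just outside. On the lower side Cpt2, at 6.20 in both, was just inside, and Plaa, at 10.1 in both, just outside.

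The balance of higher and lower genes turned on how the libraries were scaled. As deposited, 81.5% of the members were higher in mcDC, while the same rule gave 1133 higher and 1546 lower genes for cDC1 and 704 and 795 for cDC2. After median-of-ratios scaling, which divides each library by its typical ratio to the others, mcDC had 349 higher and 356 lower genes (49.5% higher), with 349 of the 667 and 151 of the 151 shared. After quantile normalization it had 355 and 318 (52.7% higher), with 336 and 138 shared. The median log2 difference over all tested genes was 0.09 from cDC1 and 0.06 from cDC2 as deposited, and -0.03 and -0.04 after median-of-ratios scaling. Limma called 15.4% of all genes in either direction against cDC1 and 3.66% against cDC2. The calls against cDC1 were 61.8% higher as deposited and 46.5% after that scaling, and those against cDC2 56.4% and 42.8%. As deposited and after median-of-ratios scaling, mcDC had fewer genes outside the range of the other libraries than cDC1, whose counts were 1476 higher and 1166 lower after median-of-ratios scaling.

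**Figure D5:**
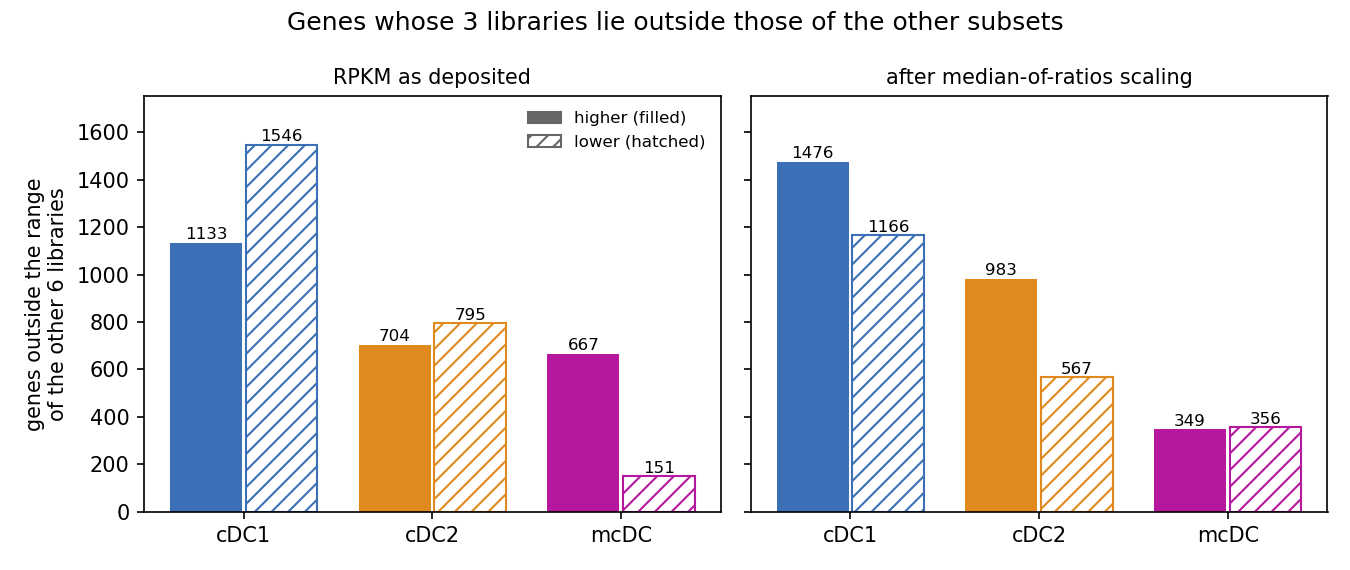
Number of genes whose 3 libraries all lie above (filled) or below (hatched) the 6 libraries of the other subsets, for cDC1, cDC2 and mcDC, with RPKM as deposited (left) and after median-of-ratios scaling (right). The mcDC pair changes from 667 and 151 to 349 and 356, and mcDC has fewer lower genes than either conventional subset in both panels.

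The contrast of cDC1 with cDC2 was not compared by the rule and was tested for the members with limma. Of the 667 higher genes, 69 were called (10.3%), against 19.6% of all genes tested, and of the 151 lower genes, 35 (23.2%). A gene on which the conventional subsets lie close meets the rule more easily, so a low share among the members is favoured by the rule. Among the higher genes, 10 were higher in cDC1 (8.85% of all genes were) and 59 lower (10.7% of all genes were). Tbx21 was lower in cDC1 than in cDC2 (log2 difference -1.61, SE 0.21, adjusted p = 0.00052), as were Gfra2 (-0.92, SE 0.22, adjusted p = 0.016) and Cfp (-1.18, SE 0.18, adjusted p = 0.0014). Stab2 was higher in cDC1, by 0.89 (SE 0.19, adjusted p = 0.0087) on the log2 scale. The call of Gfra2 was lost without cDC1 replicate 2 or cDC2 replicate 1 or 2 (adjusted p up to 0.076). The number of members called was 104, and it fell to 50, 54, 59, 41 and 53 without cDC1 replicates 2 and 3 and cDC2 replicates 1, 2 and 3.

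Among the lower genes 28 were higher in cDC1 (18.5%, against 8.85% of all genes) and 7 lower (4.64%, against 10.7%). The rule that chose these genes used the same conventional libraries. Epsti1 was higher in cDC1 by 1.09 on the log2 scale (SE 0.11, adjusted p = 0.00011). Cnr2 was higher there by 0.66 (SE 0.16, adjusted p = 0.017), a call that was lost without cDC1 replicate 2 or cDC2 replicate 2 or 3 (adjusted p up to 0.073). For H2-Eb1 the difference was -0.01 (SE 0.21, adjusted p = 0.98).

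Higher genes lay next to a higher gene more often than other tested genes did. The gene order was that of the RefSeq table with untested genes left out, so neighbours can have untested genes between them. In this order 129 of the 667 (19.3%) were next to another higher gene, against 1167 of 11294 other tested genes (10.3%). The longest run had 4 genes on chromosome 4, the C1q genes and Kdm1a. The Klrb1a, Klrb1c and Klrb1b genes and the Gimap4, Gimap6 and Gimap7 genes formed runs of 3 on chromosome 6, and Capsl, Il7r and Dnajc21 a run of 3 on chromosome 15. These runs were named after their values were seen, and the Klr and Gimap families hold near-identical genes between which reads can be split.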

How the data were processed

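RNA was sequenced in 9 libraries, 3 of each subset. The authors deposited values per gene whose unit the files do not name. Per the deposited values these are RPKM, read counts divided by gene length and library total, since 100% of the nonzero values came out as whole reads within 0.01. Libraries were prepared with a directional kit, per the labels' protocols, the submitters' processing notes name mouse build mm8, and the aligner, counter and annotation are not given in the sources used here. Per the table itself, 8 libraries also had files of their own with 0 differing values, and there were 0 columns of other samples. The members and gene lists were chosen with earlier results of these data known. The test was limma (version 3.58.1, R 4.3.3) applied to log2(RPKM + 1), with a trend, the 3 subsets in 1 fit (6 residual degrees of freedom, median standard error 0.209) and Benjamini-Hochberg adjustment over 11971 genes, calling genes at 0.05. This scale understates changes of low genes. For mcDC against cDC1 the fit was checked on simulated libraries drawn independently of each other. That check did not cover libraries that deviate together by run, or the other contrasts.

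Named genes were the 15 higher and 12 lower members with the widest gap between nearest libraries on log2(RPKM + 1) and at least 5 RPKM in the lower of the higher group's libraries, 4 markers, up to 5 members and 3 other high-level genes of each list described, 8 dendritic cell genes and those at the threshold; predicted and sex-linked genes were left out, and a few genes are not reported here. RefSeq (GRCm38.p6) served for names, gene order and promoters, as its build differs from mm8, and 14847 of 14862 gene numbers were found in it. Alternatives were other pseudocounts, filters, scalings, fits and each library left out.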

Additional observations from a re-analysis of the deposited data

How the results depend on the processing

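The member counts moved with the mcDC library left out, the scaling and the filter. The higher count of 667 became 430 with a minimum of 5 RPKM, 355 after quantile normalization and 349 after median-of-ratios scaling, and the lower count of 151 became 318 and 356 after those scalings. With 1 library left out, the higher count ranged from 728 to 1574 and the lower count from 165 to 447, and without mcDC replicates 1, 2 and 3 they were 1574 and 447, 1085 and 401, and 1356 and 313. A rule over fewer libraries is easier to meet. In limma, genes called went from 1845 to 1097 (mcDC against cDC1), from 438 to 243 (mcDC against cDC2) and from 2344 to 3724 (cDC1 against cDC2) when the fit held only the groups compared; the cause was not tested. With 1 library left out the counts were 951 to 2601, 158 to 896 and 1547 to 3467 in the same order, and 41 to 151 for the 104 members called between cDC1 and cDC2; the lowest came without cDC1 replicate 2 for the first and the third and without cDC2 replicate 2 for the second and for the members.

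Under quantile normalization the gap of these genes on the log2 scale turned against its direction: H2-Eb1 (-0.41), H2-Aa (-0.45), Cd74 (-0.34), H2-K1 (-0.49), Abca1 (-0.06), Prg2 (-0.21), Zap70 (-0.14), Ctsl (-0.03), Glul (-0.02), Zc3h13 (-0.14), Fkbp11 (-0.07) and Cpt2 (-0.03). After median-of-ratios scaling it did so for Cd163 (-0.004), Cfp (-0.01), Prg2 (-0.10), Zap70 (-0.02), Ctsl (-0.03), Glul (-0.10), Pecam1 (-0.03) and Zc3h13 (-0.14). The cause was not tested.

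The labels give no replicate numbers, and library titles run in 3 sets of consecutive numbers with 1 library of each subset. Over libraries of the same run the deviations from the group means correlated at 0.07 to 0.55 (9 pairs, 8 of them over 0.1), and over other pairs at -0.55 to 0.01, and every library correlated best with its own run, a hint from the data and not from the design. With the run as a replicate block, limma called 2474 genes for mcDC against cDC1, 773 for mcDC against cDC2, 2942 for cDC1 against cDC2 and 122 of the members in the last; with this block Slc40a1 was called between cDC1 and cDC2 (adjusted p = 0.035). The lower depth of the mcDC libraries limits genes of few reads.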

Other observations

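Groups of genes that were drawn up after the values were seen are given here as values, with no test. Of 19 tested genes of sterol synthesis, 5 lay above the conventional range in mcDC and 0 below. The higher count was 4 after either other scaling and 8 without mcDC replicate 1, where 13.3% of all genes were higher. Fdps, which makes the farnesyl precursor of sterols, measured 63.9, 105 and 146 RPKM in mcDC against 30.9 to 53.4. It was highest in mcDC replicate 3. Of 26 tested interleukin receptor chains, 8 were higher and 0 lower (8 and 1 under either other scaling). They included Il27ra, a chain of the IL-27 receptor, at 8.59, 9.06 and 9.42 RPKM in mcDC against 3.38 to 4.75, and Il2ra, the alpha chain of the IL-2 receptor, at 2.28, 2.19 and 3.38 against 0.666 to 1.15.

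Of the 8 GIMAP genes, small GTPase genes of lymphocytes, 5 were higher (3 after median-of-ratios scaling and 2 after quantile normalization), and all 5 were highest in mcDC replicate 3. Gimap6 measured 21.1, 27.5 and 48.1 RPKM in mcDC, 8.61 to 16.8 in cDC1 and 2.97 to 6.48 in cDC2. The cannabinoid receptor genes went opposite ways: Cnr1 was higher, at 0.648, 1.18 and 1.14 RPKM in mcDC against at most 0.0782, a level of few reads, while Cnr2 was lower. Transcripts of connective tissue appeared in mcDC replicate 3: Sparc measured 7.99 RPKM there and 0.225 and 0 in the other mcDC libraries, and Col1a1 2.91 against 0.143 and 0.0606.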
